A study of Mus musculus with 4 samples.

Results

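Microglia of mice labelled IL-6 knockout were compared between 1 library prepared 6 days after a cerebrovascular injury and 1 library prepared 6 days after sham surgery. A cell was taken as microglial when at least 2 of the 4 microglial transcripts Sall1, Siglech, P2ry12 and Tmem119 were detected in it, with no clustering. It also had to hold at least 500 genes, at least 1000 unique molecular identifiers (UMIs, 1 per captured RNA molecule) and at most 10% mitochondrial UMIs. This gate kept 1193 cells of the knockout-labelled sham library and 2236 cells of the knockout-labelled injured library, together 3429 of the 8018 cells of all 4 libraries that passed the same quality limits. The other 2 libraries, from IL-6 wild-type (+/+) mice given sham surgery or the injury, held 3016 gated cells and serve here only for comparison.

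The series describes 1 mouse per library, and the surgery was performed at 8 to 12 weeks of age. The injury was made by applying pulsed ultrasound to a thinned skull after intravenous microbubbles, which opens and damages vessels under the window; the labels describe mild and severe settings and do not give the one used for these libraries. Brain tissue was taken with a 4 mm punch and enzymatically dissociated, myelin was removed, CD11b+ cells were enriched on beads, and libraries were made with 10x Genomics 3′ chemistry. The knockout-labelled groups carry the genotype IL6 KO (-/-); the allele and its deleted part are not given in the sources used here, and the control is called both sham-operated and uninjured.

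Microglia are the resident macrophages of the brain. In health they keep a homeostatic programme that depends on TGF-beta signalling and includes the purinergic receptor P2ry12. In damaged or demyelinated tissue many of them lower that programme and take up a disease-associated one, with lipid-handling and lysosomal genes such as Apoe, Lpl and Cst7. Interferon-stimulated genes are a further set that microglia can switch on, with Irf7 among the transcription factors that drive them. Interleukin 6 is a cytokine that binds Il6ra and the shared signalling chain Il6st and activates STAT3, whose feedback inhibitor is Socs3.

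Each group was 1 library, so no difference below has a replicate check and none was tested. Levels are UMIs of a gene summed over the gated cells scaled to counts per 1e6 gated UMIs (CPM), and intervals are exact 95% intervals that cover counting error only. The sums rested on 12028176 UMIs in the sham cells and 23512224 in the injured cells, with medians of 8566 and 9188.5 UMIs per cell and 4.32% and 4.52% mitochondrial UMIs. The gate took 85.7% (83.8 to 87.5, exact binomial) of the sham cells that passed the quality limits and 84.8% (83.3 to 86.1) of the injured ones. The gate genes themselves were lower after injury: P2ry12 stood at 2524 CPM in sham and 1145 CPM in injured cells, Tmem119 at 1070 and 516, Siglech at 1127 and 590, and Sall1 at 299 and 165 CPM. They chose the cells, so these values are a description, and a microglial cell that had lost them would lie outside the gate. All 4 gate genes were detected in 920 of the sham cells and in 1449 of the injured cells.

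Some gated cells may not be microglia, and the values that bear on this differed between the libraries. The sum of 12 monocyte and monocyte-derived markers was 453 CPM in sham and 1972 CPM in injured cells, 9 of the 12 were higher, and 7.63% of sham cells against 26.6% of injured cells held at least 2 of them. Most of the sum was Lyz2 (413 and 1861 CPM), which activated microglia also express. Among the others Ms4a4c was at 1.66 and 21.5 CPM, Plac8 at 0.58 and 6.55 CPM, S100a4 at 1.58 and 8.85 CPM and Ms4a7 at 14.5 and 40.7 CPM, while the monocyte receptor Ccr2 was at 6.15 and 4.34 CPM and Ly6c2 at 0.083 and 0.51 CPM. Border-associated macrophage markers summed to 342 and 239 CPM with 7 of 9 lower, yet 7.80% of sham cells and 13.1% of injured cells held at least 2 of them, and Folr2 (2.58 and 16.3 CPM) and Ms4a7 were higher. Dendritic cell markers summed to 66.1 and 51.3 CPM. Some markers of these myeloid kinds were found in many gated cells. Lyz2 was in 70.2% of sham and 93.7% of injured cells, the border-associated Stab1 in 68.4% and 54.2% and the dendritic Naaa in 31.3% and 27.4%. A microglial cell can therefore hold several of these markers, also where cells are left out by them below. Neutrophil markers summed to 217 and 190 CPM, mostly Csf3r, with Ly6g at 0 in both libraries. Neuronal markers moved the other way: all 10 were lower, their sum went from 332 CPM in sham to 48.7 CPM in injured cells, and 34.0% of sham cells against 7.51% of injured cells held at least 2 of them. Astrocyte markers summed to 277 and 194 CPM and oligodendrocyte lineage markers to 241 and 167 CPM. Endothelial markers summed to 707 and 666 CPM, mostly Bsg (501 and 587 CPM), which was found in 88.5% of sham and 94.2% of injured cells. The other 9 endothelial markers were all lower, among them Cldn5 (50.9 and 18.3 CPM) and Itm2a (44.1 and 12.0 CPM). Cells with fewer gate genes stood apart in sham: those with exactly 2 held 14349 CPM of Apoe and 577.5 CPM of Ifitm3, those with all 4 held 856 and 10.7 CPM. The part of such cells in the results was not tested beyond the values given beside each result.

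The knockout-labelled and wild-type sham libraries also shared 135 cell barcodes, against 2 to 14 for each other pair of libraries. Among the gated knockout-labelled sham cells, 65 (5.45%) had a barcode that also occurred in the wild-type sham library, and these were deep, with a median of 33054 UMIs against 8463 in the rest. Without them 158 genes were 2-fold or more above sham and 96 as far below, beside 156 and 98 with them.

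Il6, the gene named by the genotype, was counted in every library. In the gated cells the knockout-labelled sham library held 278 Il6 UMIs in 135 of 1193 cells, 23.1 CPM (20.5 to 26.0), and the knockout-labelled injured library 498 UMIs in 251 of 2236 cells, 21.2 CPM (19.4 to 23.1). The wild-type sham cells held 11.0 CPM (8.97 to 13.4) and the wild-type injured cells 5.14 CPM (4.35 to 6.02), so both knockout-labelled libraries stood above both wild-type ones. A 3′ tag can lie outside the deleted part of a gene, and with the allele not given these counts do not check the genotype label, whose libraries are called knockout-labelled (KO-labelled) throughout. The injured over sham ratio of Il6 was 0.916 (0.790 to 1.07), an interval that includes no difference. At an equal depth of 3000 UMIs per cell, 4.53% of sham and 4.98% of injured cells held an Il6 UMI. Il6 was unevenly spread, since the 10 richest cells held 32.7% of its UMIs in sham and 18.9% in injured, and 83 of the 278 sham UMIs came from the cells with shared barcodes. Cells outside the gate held more per UMI, 57.0 CPM in the sham and 28.8 CPM in the injured library, with 84.9% and 55.2% of it in their 10 richest cells. Il6 was found in 10.6% and 8.96% of these cells, beside 11.3% and 11.2% of the gated ones.

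Among the receptors and signal carriers of the IL-6 family, Il6ra and Lifr were lower and the ligand Osm higher, and none of the other 9 genes that passed the filter differed by 1.5-fold. Il6ra was at 249 CPM in sham and 135 CPM in injured cells, 1.84-fold lower (1.75 to 1.93), and Lifr, the receptor for leukaemia inhibitory factor, went from 63.4 to 18.9 CPM, 3.35-fold lower (2.97 to 3.77). The shared chain Il6st was 1.34-fold lower (1.25 to 1.44) and the kinase Jak1 1.44-fold lower (1.36 to 1.51). The oncostatin M receptor Osmr had 8 UMIs in each library, too few to compare, while its ligand Osm was higher, at 41.9 CPM in sham and 98.3 CPM in injured cells (2.35-fold, 2.13 to 2.59). Of the 17 genes in this list 12 passed the filter on low values, 1 of them (Osm) being past 1.5-fold on the higher side and 2 on the lower, beside 5.49% and 12.5% of all genes compared. Their median log2 ratio of -0.28 was near the all-gene median of -0.22 and turned to 0.03 under median-of-ratios scaling. Stat3 (141.9 and 113.9 CPM) and Socs3 (524 and 443 CPM) had ratios of 0.803 and 0.845, and both log2 ratios changed sign under that scaling. Among 20 STAT3 targets and feedback genes, 15 passed the filter, 2 were at least 1.5-fold higher (Hif1a, the hypoxia-inducible factor, at 96.1 and 182 CPM, and the kinase Pim1) and 4 at least 1.5-fold lower, among them the cyclin Ccnd1 (141 and 60.0 CPM), Cebpd (186 and 98.8 CPM) and the cytokine signalling inhibitor Socs1 (49.0 and 23.9 CPM).

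Across all genes the largest differences were on the higher side. Log2 ratios here are injured over sham, each with 10 CPM added to damp low values, for the 6189 genes that reached 20 CPM in either library and 50 UMIs over both. After injury 156 genes, 2.52% of those compared, stood 2-fold or more above sham, and 98 genes, 1.58%, stood 2-fold or more below it. The higher genes thus made up 61.4% of the genes past 2-fold, a share that became 90.2% (296 higher and 32 lower) under median-of-ratios scaling. The balance turned the other way, to 188 higher and 207 lower, with 2 CPM added in place of 10, and to 146 higher and 197 lower with the wild-type sham library as the control. The median log2 ratio of all genes was -0.22, and 0.09 under that scaling, so a gene near -0.22 moved with the bulk of the genes. The plot of summed levels in sham against injured cells shows Apoe as the abundant gene farthest above the diagonal and Spp1, Cst7 and Gpnmb as the genes farthest to its upper left.

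**Figure D1:**
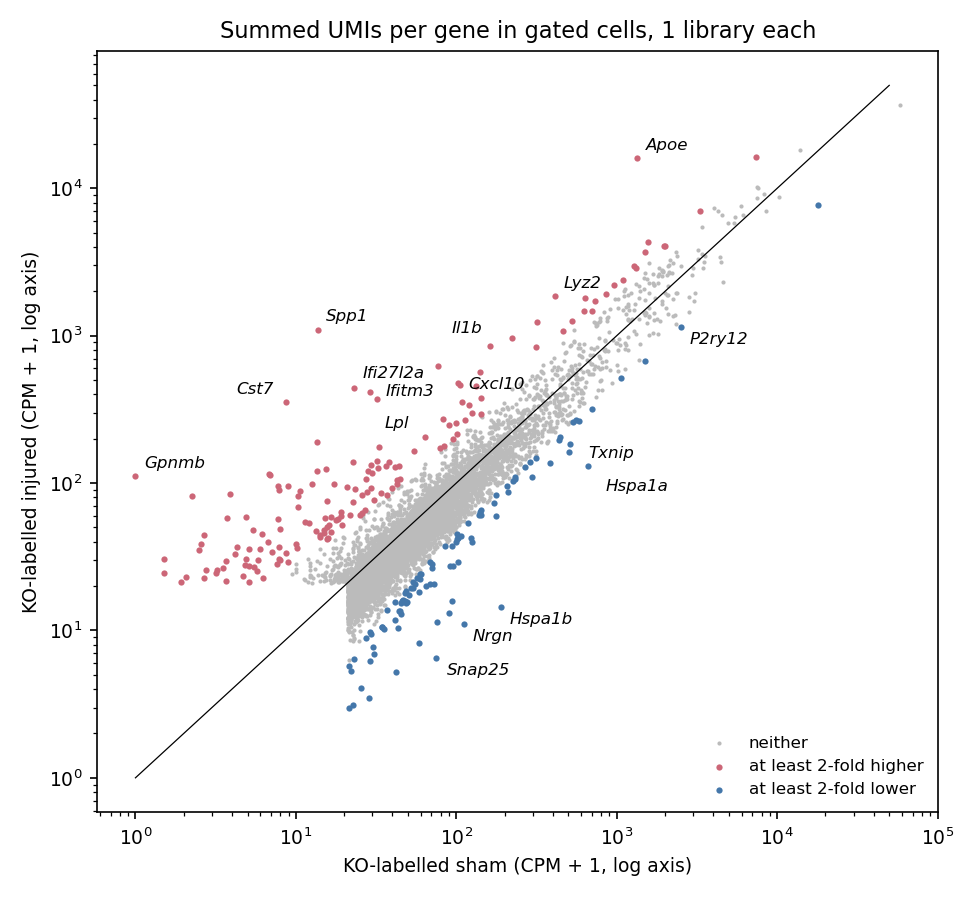
Summed UMIs of each gene that passed the filter in KO-labelled sham cells (x axis, CPM + 1, log scale) against KO-labelled injured cells (y axis, CPM + 1, log scale), 1 library each, with genes at least 2-fold higher in red and at least 2-fold lower in blue. Apoe lies at 1339 CPM in sham and 16112 CPM in injured cells, while Snap25, Nrgn and Hspa1b lie farthest below the line.

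The disease-associated programme was higher nearly throughout. Of its 28 listed genes 26 passed the filter, and 25 of these were at least 1.5-fold higher and none lower, with a median log2 ratio of 1.73; over all genes compared, 5.49% lay 1.5-fold or more on the higher side and 12.5% as far on the lower side. Apoe, the main apolipoprotein of the brain, was at 1339 CPM (1319 to 1360) in sham cells and 16112 CPM in injured cells, a 12.0-fold difference (11.8 to 12.2). Cst7, an inhibitor of lysosomal cysteine proteases, was at 7.65 and 351 CPM (45.9-fold, 37.4 to 57.0). The lipoprotein lipase Lpl was at 30.8 and 372 CPM (12.05-fold, 10.9 to 13.4). The phagocytic receptor kinase Axl was at 6.73 and 94.9 CPM (14.1-fold, 11.3 to 17.8), or 29.8-fold with cells holding at least 3 macrophage, monocyte or dendritic markers left out. These 4 genes were spread over many injured cells: Cst7 was found in 1262 of the 2236 and Axl in 832.

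Spp1 and Gpnmb had large ratios that rested on fewer cells. Spp1, the secreted phosphoprotein osteopontin, was at 12.7 CPM in sham and 1100 CPM in injured cells (86.5-fold, 73.8 to 102), and its 10 richest injured cells held 50.6% of its 25867 UMIs. In sham all 153 Spp1 UMIs came from 14 cells and 104 from 1 cell; without the cells with shared barcodes the sham level was 4.74 CPM and the ratio 232. Gpnmb, a membrane glycoprotein of phagocytes, had no UMI in sham and 2606 UMIs in 135 injured cells, 111 CPM, which is at least 444-fold higher against a floor of 3 counts in the sham library. Cells with fewer gate genes held more Spp1, 5486 CPM in injured cells with exactly 2 and 612 CPM in those with all 4. When cells with at least 3 macrophage, monocyte or dendritic markers were left out (377 sham and 869 injured), Gpnmb kept 150 UMIs in injured cells, 13.4 CPM and at least 27.9-fold higher, and Spp1 was at 2.24 and 292 CPM. In that setting Apoe was 15.1-fold higher, and 123 genes stood 2-fold or more above sham and 59 below. With a gate of at least 1 marker Apoe was 8.81-fold higher.

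Lists of lipid handling and lysosomal protease genes, which share 4 and 5 genes with the disease-associated list, were higher in part. In the list of 30 lipid and cholesterol genes 19 passed the filter, 10 of them at least 1.5-fold higher and 1 lower, with a median of 1.08. The fatty acid binding protein Fabp5 was at 12.5 and 190 CPM (15.3-fold, 13.0 to 18.1), and at 14.1 and 72.1 CPM (5.12-fold) with macrophage, monocyte and dendritic marker cells left out. Ch25h, which makes 25-hydroxycholesterol, was at 1.66 and 43.4 CPM (26.1-fold, 16.8 to 42.9), from 1021 UMIs in 275 injured cells. Its sham level rested on 20 UMIs in 4 cells, 17 of them in 1 cell. Only 1 sham UMI remained with neuronal marker cells left out. The 12 genes at least 1.5-fold higher among 23 filtered lysosomal protease genes included the cathepsins Ctsb (1568 and 4322 CPM, 2.76-fold) and Ctsl (1496 and 3724 CPM, 2.49-fold) and the lysosomal protein progranulin, Grn (962 and 2204 CPM, 2.29-fold). Cst3, the inhibitor cystatin C and the most abundant of these transcripts, was lower (58579 and 36805 CPM). The list with Cst3 in it summed per cell, at an equal depth of 3000 UMIs, to medians of 297 UMIs in sham and 289 in injured cells.

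Interferon-stimulated genes formed the second set that was higher almost as a whole. Of 36 listed genes 31 passed the filter, 28 were at least 1.5-fold higher and none at least 1.5-fold lower, with a median log2 ratio of 1.79. Ifi27l2a was at 22.2 CPM (19.6 to 25.0) in sham and 439.6 CPM (431 to 448) in injured cells, 19.8-fold higher (17.5 to 22.4), and 37.0-fold with macrophage, monocyte and dendritic marker cells left out. Ifitm3, which blocks virus entry at endosomes, was at 28.2 and 412 CPM, 14.6-fold higher (13.1 to 16.3). Within the gate its sham level was highest in the cells with exactly 2 gate genes. Sham cells outside the gate held more, 861 CPM with 1 gate gene and 1222 CPM with 0. With macrophage, monocyte and dendritic marker cells left out Ifitm3 was at 8.96 and 329 CPM, 36.7-fold higher. Irf7, the transcription factor that amplifies the type I interferon response, was at 2.91 and 83.8 CPM (28.8-fold, 20.6 to 41.5). The antiviral effector Ifit3 was at 5.90 and 112 CPM (19.0-fold). The DNA sensor family member Ifi204 was at 5.82 and 114 CPM (19.6-fold, 15.4 to 25.2). Ifi204 has close paralogues, and how the counting divided reads among them is not known here. A gate of at least 1 marker gave smaller ratios, 12.5 for Ifi27l2a, 6.72 for Ifitm3 and 11.8 for Ifi204.

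The promoters of these genes are shown because the members of the list moved together. The interferon-stimulated response element, a motif common in promoters of such genes, was searched on either strand as GAAA, any 2 bases and GAAA again, in the RefSeq window from 250 bases before to 50 bases after each start site (GRCm38.p6). It was found in 3.44% of all 32851 windows. In the interferon list 28 genes had a window and 17 of them (60.7%) held the motif; among the 22 listed genes at least 2-fold higher it was 11 of the 16 with a window (68.8%). Of the 119 genes with a window among all those at least 2-fold higher, 16.0% held it, as did 1.54% of 65 among the lower ones and 4.18% of the filtered genes. The letters are a description and not evidence of binding. The 6 genes below had the highest log2 ratios among list members with a match lying wholly upstream of the start site; each line gives 40 bases on the strand of the gene, 5′ to 3′, with 1 match in capitals, read as TTTC, 2 bases and TTTC where it lies on the other strand.
Ifit3, chr19:34583392-34583431, match starting 122 bases upstream: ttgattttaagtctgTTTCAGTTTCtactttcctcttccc
Slfn5, chr11:82951932-82951971, match starting 155 bases upstream: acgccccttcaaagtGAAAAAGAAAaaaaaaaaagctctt
Isg15, chr4:156200866-156200905, match starting 72 bases upstream: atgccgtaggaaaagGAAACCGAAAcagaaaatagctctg
Cxcl10, chr5:92349078-92349117, match starting 213 bases upstream: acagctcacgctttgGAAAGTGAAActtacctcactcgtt
Rsad2, chr12:26456548-26456587, match starting 120 bases upstream: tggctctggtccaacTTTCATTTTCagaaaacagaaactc
Bst2, chr8:71537572-71537611, match starting 124 bases upstream: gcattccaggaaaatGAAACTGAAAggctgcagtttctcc

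The genes behind these sequences differed in level as well as in ratio. Bst2, tetherin, which holds budding virus at the membrane, was the most abundant, at 140 CPM in sham and 566 CPM in injured cells (4.05-fold). Isg15, a ubiquitin-like modifier, was at 21.7 and 138 CPM (6.34-fold), and Slfn5 at 7.90 and 94.5 CPM (12.0-fold, or 38.7-fold with macrophage, monocyte and dendritic marker cells left out). Rsad2, the antiviral enzyme viperin, had 18 UMIs in 10 sham cells and 806 UMIs in 234 injured cells (22.9-fold). With a gate of at least 1 marker Slfn5 was 7.14-fold and Rsad2 9.81-fold higher, and with at least 3 markers Rsad2 was 54.0-fold higher.

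Inflammatory cytokines and chemokines were higher without a like difference in the NF-kB feedback genes. Of 26 cytokine and chemokine genes 19 passed the filter and 14 were at least 1.5-fold higher, none lower, with a median of 1.37. Il1b, interleukin 1 beta, was at 162 CPM in sham and 854 CPM in injured cells (5.28-fold, 5.04 to 5.54) and was found in 186 of 1193 and 1181 of 2236 cells. Ccl5, a chemokine for T cells and monocytes, was at 1.25 and 80.3 CPM (64.4-fold, 38.9 to 115), from 15 UMIs in 7 sham cells and 1887 UMIs in 309 injured cells; the ratio was 41.6 with neuronal marker cells left out, and only 1 sham UMI remained with macrophage, monocyte and dendritic marker cells left out. Cxcl10, which interferon induces, was at 101 and 480 CPM (4.74-fold, 4.46 to 5.03), and the neutrophil chemokine Cxcl2 at 104 and 463 CPM (4.45-fold, 4.20 to 4.73). Ccl3 was abundant in both, at 1100 and 2404 CPM (2.18-fold). Of 18 NF-kB feedback genes 15 passed the filter and 3 were at least 1.5-fold higher: the prostaglandin synthase Ptgs2 (20.0 and 93.0 CPM), Cd83 (465 and 1078 CPM) and Gpr84 (258 and 483 CPM). Tnfaip3, the feedback enzyme A20, was at 264 and 314 CPM. The median of that list, 0.14, turned to -0.23 with the wild-type sham library as the control, as did the sign of Tnfaip3 (-0.25).

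Antigen presentation genes of class I and class II were higher in part, and none was at least 1.5-fold lower. Of 17 class I pathway genes 16 passed the filter and 9 were at least 1.5-fold higher, with a median of 0.82. The heavy chains H2-D1 (633 and 1796 CPM, 2.84-fold) and H2-K1 (622 and 1470 CPM, 2.36-fold) led in level and H2-Q7 (28.4 and 131.5 CPM, 4.63-fold) in ratio; H2-Q6 and H2-Q7 are near-identical, so their split is uncertain. In class II 9 of 10 genes passed and 5 were at least 1.5-fold higher (median 0.62). Cd74, the invariant chain, was at 112 CPM in 189 sham cells and 268 CPM in 768 injured cells (2.38-fold, 2.24 to 2.53). H2-Aa was at 43.9 and 106 CPM (2.41-fold, 2.20 to 2.66), but all its UMIs came from 16 sham and 123 injured cells, and 98.3% and 66.8% of them from the 10 richest cells of each library. With cells holding at least 2 neuronal markers left out, the ratios of H2-Aa and Cd74 were 1.56 and 1.67. With macrophage, monocyte and dendritic marker cells left out, H2-Aa was at 0.16 and 19.1 CPM and Cd74 at 33.1 and 117 CPM.

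**Figure D2:**
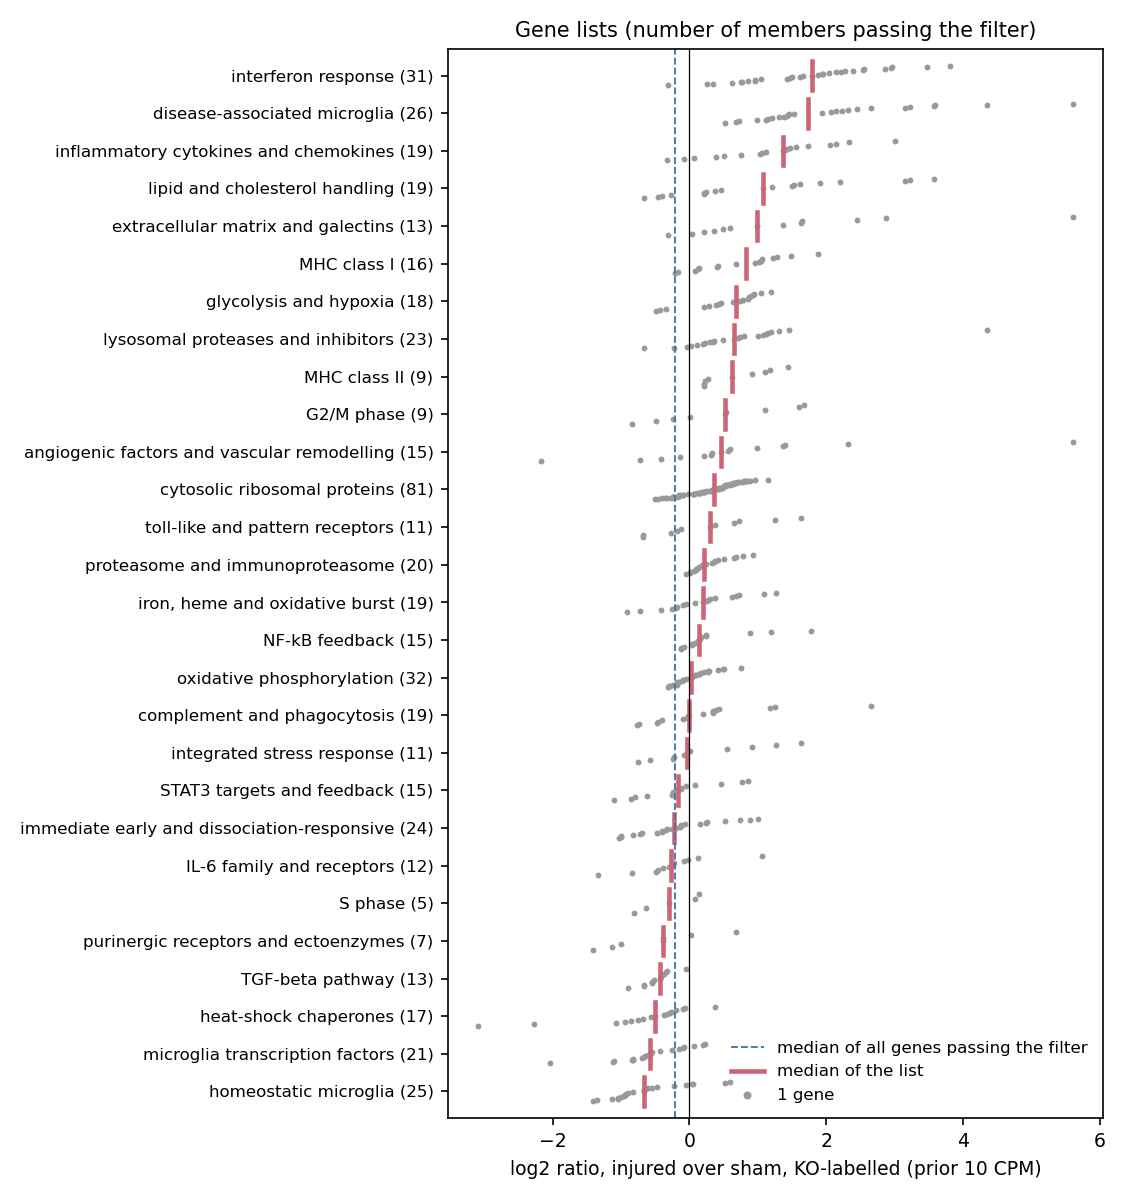
Log2 ratios (injured over sham, KO-labelled, 10 CPM added) of the members of each gene list that passed the filter, with 1 point per gene and the list median marked. Members of the disease-associated and interferon lists lie almost wholly to the right, with medians of 1.73 and 1.79, and the homeostatic list lies mostly to the left with a median of -0.67.

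The homeostatic programme was lower, with exceptions. Of 26 listed genes 25 passed the filter, 17 were at least 1.5-fold lower and 1 higher, with a median of -0.67. Those counts include the 4 gate genes, which chose the cells; of the 21 others 13 were at least 1.5-fold lower and 1 higher, with a median of -0.66. P2ry13, a purinergic receptor beside P2ry12, was at 508 and 185 CPM (2.75-fold lower, 2.64 to 2.86), and the fructose transporter Slc2a5 at 296 and 109 CPM (2.71-fold lower, 2.57 to 2.85). The ectoenzyme Entpd1, which breaks down ATP, was 2.08-fold lower (1.98 to 2.19). Crybb1 was at 494 and 250 CPM. Abundant markers of the lineage stayed high in both libraries: Csf1r was at 3070 and 1935 CPM, and Cx3cr1 at 2812 and 1458 CPM. Trem2, the lipid receptor on which the disease-associated programme depends, was at 2122 and 3033 CPM and Lag3, the exception on the higher side, at 169.6 and 260.5 CPM.

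Several transcription factors of microglial identity were lower too, and so were a few TGF-beta pathway genes. Of 24 microglial transcription factor genes 21 passed the filter; without the gate gene Sall1, 9 of 20 were at least 1.5-fold lower and none higher (median -0.57). Hes1, a Notch target, was at 92.7 and 14.9 CPM (6.23-fold lower, 5.52 to 7.04), Zfhx3 at 704 and 318 CPM (2.21-fold lower), Maf at 581 and 264 CPM (2.20-fold lower) and Mef2a at 628 and 347 CPM (1.81-fold lower). In the TGF-beta pathway 13 of 20 genes passed, 3 were at least 1.5-fold lower and none higher (median -0.43): the receptor Tgfbr1 (808 and 427 CPM), the signal transducer Smad3 (38.7 and 20.9 CPM) and the integrin Itgav (117 and 70.3 CPM), which activates the latent ligand. Both medians lay below the all-gene median of -0.22. Over all genes compared, 12.5% lay 1.5-fold or more on the lower side and 5.49% as far on the higher side. The 3 of 13 TGF-beta genes are a small count beside that share, and none of the 13 was 2-fold lower. Of 13 purinergic receptor and ectoenzyme genes 7 passed; without the gate gene P2ry12, 2 of 6 were past 1.5-fold on the lower side (P2ry13 and Entpd1) and 1 on the higher side, with a median of -0.39.

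Among the genes with the lowest ratios were chaperones induced by heat and neuronal transcripts. Hspa1b was at 189 CPM in sham and 13.4 CPM in injured cells, 14.2-fold lower (12.6 to 16.0), and its neighbour Hspa1a at 665 and 130 CPM, 5.13-fold lower (4.92 to 5.35); the pair is nearly identical in sequence, so the split between them is uncertain. Of 19 chaperone genes 17 passed, 7 were at least 1.5-fold lower and none higher (median -0.50), among them Hsph1 (2.77-fold lower) and Hsp90aa1 (1.95-fold lower). Both are known to be induced by tissue dissociation, as are the immediate early genes, of which 24 of 25 passed, 6 were at least 1.5-fold lower and 3 higher, with a median of -0.22 that turned to 0.13 under median-of-ratios scaling. Jun was at 4622 and 2307 CPM, Klf4 at 560 and 269 CPM and Rhob at 1375 and 684 CPM, and the phosphatase Dusp2 was higher, at 141 and 293 CPM. Handling of the single sham and the single injured sample cannot be told apart from injury.

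The neuronal transcripts Snap25 (74.2 and 5.49 CPM, 13.5-fold lower), Nrgn (111 and 10.1 CPM, 11.0-fold lower), Dnm1 (27.5 and 2.47 CPM, 11.2-fold lower) and Eef1a2 (41.0 and 4.25 CPM, 9.64-fold lower) moved with the neuronal markers given above. With the 406 sham and 168 injured cells holding at least 2 neuronal markers left out, they were 3.35-fold, 3.35-fold, 2.96-fold and 3.82-fold lower. Snap25 and Nrgn are among the 10 markers that chose those cells, so the filter itself takes out their UMIs. Dnm1 and Eef1a2 are not among them, but most of their sham UMIs also lay in the cells left out. Dnm1 kept 27 of 331 sham UMIs and 30 of 58 injured ones. Eef1a2 kept 64 of 493 and 55 of 100. In that setting Hspa1b was still 13.5-fold lower, and 89 genes in all were at least 2-fold lower. Other genes with the lowest ratios were not neuronal markers: the growth factor Hbegf (89.5 and 12.0 CPM, 7.43-fold lower), Bank1, a signalling adaptor (57.7 and 7.19 CPM, 8.03-fold lower), the arrestin Arrdc3 (74.6 and 10.4 CPM, 7.16-fold lower), Txnip, which restrains glucose uptake (506 and 163 CPM, 3.11-fold lower), and the inositol transporter Slc5a3 (124 and 38.6 CPM, 3.22-fold lower). Khdrbs3, Gadd45g and Tob1 were 3.62-fold, 3.58-fold and 3.47-fold lower.

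Genes of vascular remodelling were mixed, and matrix and galectin genes were higher in part. Of 30 angiogenic and vascular genes only 15 passed the filter, 6 of them at least 1.5-fold higher and 2 lower, with a median of 0.46. The higher ones included Spp1, the growth factor Igf1 (9.56 and 88.0 CPM, 9.20-fold, or 16.5-fold with neuronal marker cells left out) and the urokinase receptor Plaur (24.7 and 81.7 CPM, 3.31-fold), and the lower ones Hbegf and Pdgfb (252 and 149 CPM). Vegfa did not pass the filter, at 9.56 CPM in sham and 8.25 CPM in injured cells. In the matrix and galectin list 13 of 20 passed and 8 were at least 1.5-fold higher, none lower (median 0.98). The secreted glycoprotein Lgals3bp was at 76.2 and 620 CPM (8.14-fold, 7.61 to 8.71) and annexin A5, Anxa5, at 37.3 and 138 CPM (3.71-fold). Galectin 3, Lgals3, was at 14.5 and 123 CPM (8.52-fold) in 19 sham and 351 injured cells, but 120 of its 174 sham UMIs came from cells with shared barcodes and 93 from 1 cell. Its ratio was 23.1 without the cells with shared barcodes and 2.16 with macrophage, monocyte and dendritic marker cells left out.

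Glycolysis genes were higher in part, and housekeeping lists differed less. Glycolysis and hypoxia genes passed in 18 of 22 cases, with 10 at least 1.5-fold higher and none lower (median 0.68); Mif was at 124.5 and 297 CPM, Pgk1 at 78.1 and 171 CPM and Ldha at 142 and 284 CPM. All 32 oxidative phosphorylation genes passed, with 1 (Cox4i1, 541 and 919 CPM) at least 1.5-fold higher and a median of 0.02, which is above the all-gene median and turned to -0.12 with macrophage, monocyte and dendritic marker cells left out. Of 84 cytosolic ribosomal protein genes 81 passed and 20 were at least 1.5-fold higher, none lower (median 0.36), led by Rpl10a (862 and 1917 CPM). The proteasome list had 4 of 20 genes at least 1.5-fold higher, among them the interferon-inducible Psme2 (84.0 and 168 CPM) and Psmb8 (194 and 319 CPM). In the iron and oxidative burst list 5 of 19 filtered genes were at least 1.5-fold higher, including ferritin heavy chain Fth1 (3311 and 7029 CPM) and the oxidase subunit Cybb (15.1 and 50.7 CPM), and 2 were lower, the iron exporter Slc40a1 (122 and 60.3 CPM) and the transferrin receptor Tfrc (26.0 and 11.7 CPM).

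Receptors and stress genes had no common direction. Of 11 filtered toll-like and pattern receptor genes 4 were at least 1.5-fold higher, with Tlr2 (107 and 353 CPM) and the lipopolysaccharide co-receptor Cd14 (524 and 1262 CPM) leading, and 2 were lower, Tlr3 (49.3 and 27.0 CPM) and Tlr4. Their median of 0.30 turned to -0.05 with the wild-type sham library as the control. Complement and phagocytosis genes had a median of 0.00, with Axl, Cd14 and the Fc receptor Fcgr4 (13.1 and 42.0 CPM) higher among 19 and the engulfment receptor Mertk (401 and 236 CPM) lower. Of 11 filtered genes of the integrated stress response 3 were at least 1.5-fold higher, the cystine transporter Slc7a11 (5.74 and 38.8 CPM), Psat1 (17.3 and 55.7 CPM) and Cdkn1a (116 and 227 CPM), and the transcription factor Atf4 was lower (284 and 164 CPM). Their median of -0.03 turned positive under median-of-ratios scaling.

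Most cell-cycle genes were too low to compare, and the mitotic genes Cdk1 and Ube2c were found in few sham cells. Only 5 of 27 S-phase and 9 of 34 G2/M genes passed the filter, so these lists say little about their full membership. Cdk1, the mitotic kinase, had 32 UMIs in 29 sham cells and 672 UMIs in 340 injured cells, 2.66 and 28.6 CPM (10.7-fold, 7.54 to 15.8), or 5.56-fold with a gate of at least 1 marker. Ube2c, which mitotic exit requires, had 6 UMIs in sham and 550 in injured cells, found in 6 and 84 cells (46.9-fold, 21.4 to 128); the ratio was 21.8 with macrophage, monocyte and dendritic marker cells left out and 4.85 with a gate of at least 1 marker. The S-phase genes Nasp (89.8 and 46.6 CPM) and Slbp (157 and 97.4 CPM) were lower and Pcna was at 106 and 84.6 CPM. These were found in many cells of both libraries, Pcna in 595 sham and 1024 injured cells. The G2/M median of 0.52 turned to -0.39 with neuronal and myeloid marker cells left out, and the S-phase median of -0.29 turned to 0.14 with no filter on low values. At equal depth 3.69% of injured cells exceeded the 95th percentile of sham cells for the summed G2/M genes, beside 3.86% of the sham cells themselves.

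A summed level can differ because more cells hold a transcript or because each holds more of it. Cells were therefore also thinned at random to 3000 UMIs each, which kept 1037 sham and 2087 injured cells and left out 156 (13.1%) and 149 (6.66%) shallower ones. The share of cells with at least 1 UMI was at least 10 percentage points higher after injury for 147 genes, 2.38% of those compared, and at least 10 points lower for 248 genes, 4.01%. Lgals3bp was detected in 20.2% of sham and 71.2% of injured cells, Apoe in 43.6% and 94.6%, Ifi27l2a in 3.09% and 48.3% and Cst7 in 2.12% and 37.8%. Before thinning Lgals3bp was found in 492 of 1193 sham and 1948 of 2236 injured cells. Cd52, Cd63 and Lyz2 were already in 43.6% to 50.6% of sham cells and reached 82.4% to 85.5%. On the other side Txnip went from 70.7% to 36.0%, P2ry13 from 76.5% to 45.2% and Cd164, a sialomucin, from 66.2% to 35.2%. Hspa1a was in 47.5% of sham and 19.5% of injured cells. RNA free in the suspension also gives UMIs and was not measured. The neuronal Snap25, which microglia should lack, was in 12.3% of sham and 1.63% of injured cells at this depth. That share is not a floor for other genes, since Apoc2 was in 0.193% and Gpnmb in 0% of sham cells. The part of free RNA in low sham shares, such as those of Ifi27l2a and Cst7, was not tested.

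**Figure D3:**
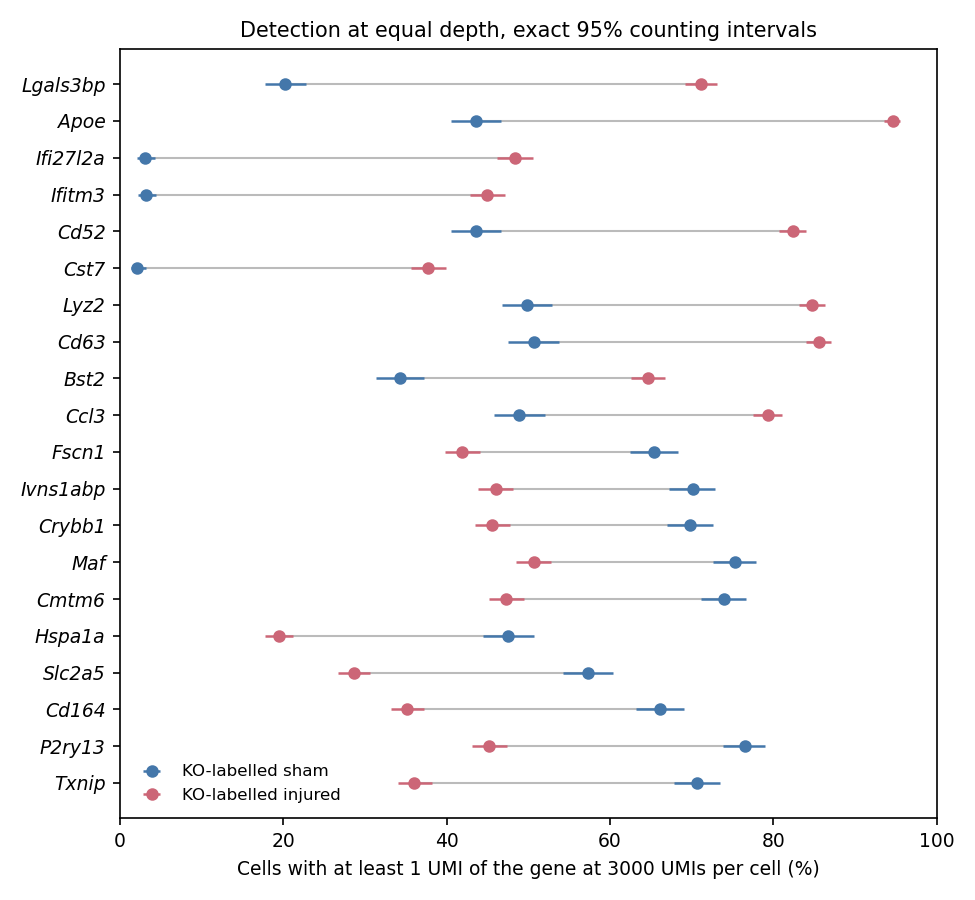
Share of gated KO-labelled cells with at least 1 UMI of each gene after thinning to 3000 UMIs per cell (x axis, percent) for the 10 genes whose share was most higher and the 10 whose share was most lower, with sham in blue, injured in red and exact 95% binomial intervals that cover counting error only. Lgals3bp spans 20.2% to 71.2% and Txnip 70.7% to 36.0%.

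The summed level of each list per cell showed how far the injured cells moved as a population. For the disease-associated list the median was 60 UMIs of 3000 in sham cells and 123 in injured cells, and 68.1% (66.1 to 70.1) of injured cells lay above the sham 95th percentile of 94 UMIs. The spread widened as well, from a 10th to 90th percentile range of 43 to 84 UMIs in sham to 61.6 to 302 in injured cells. The interferon list had medians of 2 and 7 UMIs, with 48.1% of injured cells above the sham 95th percentile, the lipid list 6 and 21 UMIs with 63.7% above, and the class I list 12 and 25 UMIs with 62.3% above. Apoe is in both the lipid and the disease-associated list, so these lists are not separate measures. It made up 1339 of the 3145 CPM of the lipid list in sham and 16112 of the 19448 CPM in injured cells. The cytokine list had medians of 8 and 24 UMIs but only 18.6% above, with sham cells spread widely, to a 95th percentile of 52 UMIs. The homeostatic list without its gate genes fell short of the sham 5th percentile in 37.1% of injured cells, with medians of 287 and 212 UMIs.

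**Figure D4:**
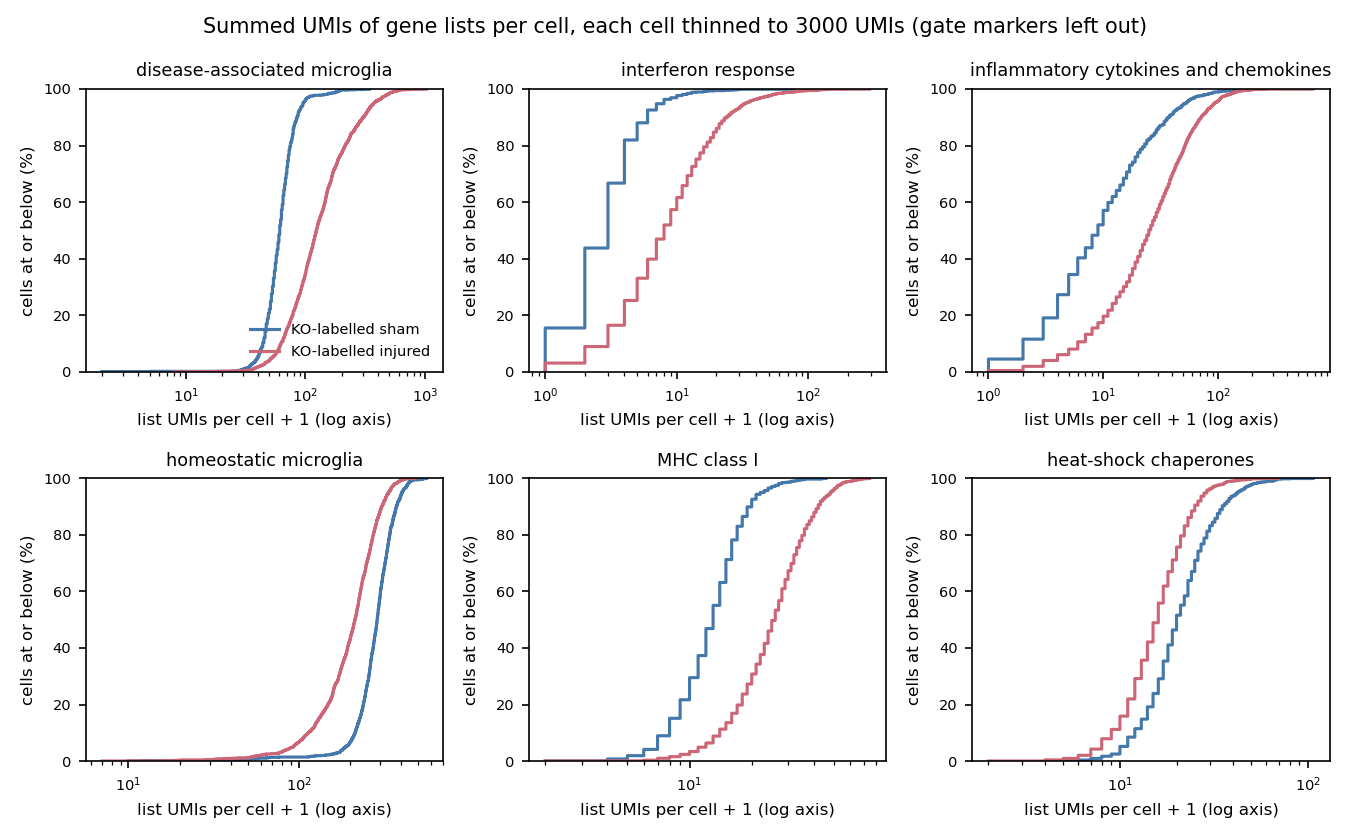
UMIs per cell of the genes of each list after thinning to 3000 UMIs per cell, in 1037 KO-labelled sham cells (blue) and 2087 KO-labelled injured cells (red). The disease-associated, interferon and class I lists are shifted up in injured cells, with medians of 60 and 123, 2 and 7, and 12 and 25 UMIs, and the homeostatic list is shifted down.

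The disease-associated, interferon and cytokine lists were not high in the same cells only. Of the 1422 injured cells above the sham 95th percentile for the disease-associated list, 752 (52.9%) were also above it for the interferon list, against 37.7% of the injured cells not above the first. Of the 505 injured cells above it for glycolysis genes, 455 (90.1%) were in the disease-associated set, against 61.1% of the injured cells not above it for glycolysis genes. Over the 3 lists together, 17.9% of injured cells were above the sham 95th percentile for none, 37.7% for 1, 36.2% for 2 and 8.24% for all 3, beside 88.8%, 9.55%, 1.25% and 0.386% of sham cells. The lists are not fully separate: Cxcl10 is in both the interferon and the cytokine list, and 1 cytokine gene is also in the disease-associated list. These are cells of 1 mouse per group and describe these libraries.

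The same contrast in the wild-type pair gave similar ratios for most genes, larger ones for many and opposite directions for a few. Over the 6012 genes filtered in both pairs the log2 ratios had a Pearson correlation of 0.893 and a Spearman correlation of 0.884 across genes, which are not independent replicates, and a slope of 0.64 of the KO-labelled on the wild-type ratios. Of the genes at least 2-fold higher in the KO-labelled pair 83.0% were also at least 2-fold higher in the wild-type pair, and 59.2% the other way round; 122 genes (2.03%) were higher in both. For lower genes the shares were 92.6% and 14.5%, with 87 genes (1.45%) lower in both, since 600 of these genes were at least 2-fold lower in the wild-type pair and 94 in the KO-labelled pair. Over the genes filtered in the wild-type pair alone, 4.01% were past 2-fold on the higher side and 9.86% on the lower side. Each mouse differs in more than its genotype label, and with 1 library per group the genotype and the animal cannot be told apart.

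The genes whose ratio fell furthest short in the KO-labelled pair were Spp1, Gpnmb, Fabp5, Gm10076, Apoc2 and Plin2. The log2 ratio was lower by 1 or more than in the wild-type pair for 33 genes, 0.549% of those compared, and higher by 1 or more for 18 genes, 0.299%. Spp1 had a log2 ratio of 5.61 in the KO-labelled and 8.91 in the wild-type pair, from near-equal sham levels of 12.7 and 13.8 CPM to injured levels of 1100 and 11464 CPM. Gpnmb had 3.59 and 6.40, Fabp5 3.16 and 5.90, the apolipoprotein Apoc2 1.91 and 4.21 and the lipid droplet protein Plin2 1.62 and 3.79. Apoe reached 16112 CPM in KO-labelled and 53889 CPM in wild-type injured cells, while Cst7 (351 and 300 CPM) and Lpl (372 and 407 CPM) reached similar levels. List medians differed less, at 0.98 in the KO-labelled and 1.60 in the wild-type pair for matrix and galectin genes, 1.73 and 2.19 for disease-associated genes and 1.08 and 1.25 for lipid genes. The wild-type injured cells also held more myeloid marker RNA, with a monocyte and monocyte-derived marker sum of 9175 CPM against 1972 CPM in KO-labelled injured cells, and of 703 against 239 CPM for border-associated macrophage markers; the part of this in the differences was not tested.

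The interferon list had no such shortfall in its median, which was 1.79 in the KO-labelled and 1.51 in the wild-type pair, and Ifitm3 had log2 ratios of 3.47 and 2.45. The genes with a ratio higher by the most in the KO-labelled pair were Ccl5 (3.00 and 1.48) and Cd74 (1.18 and -0.27) on the side of genes higher after injury. Slc5a3 (-1.47 and -2.78), Gm16310, Gm47283 and Rapgef5 were lower after injury in both pairs and less so in the KO-labelled one. For Ccl5 the difference lay in both ends, at 1.25 and 10.8 CPM in the sham libraries and 80.3 and 48.0 CPM in the injured ones. None of these differences between pairs was tested. The plot of the ratios of the pairs shows Spp1, Gpnmb and Fabp5 well below the line of equal ratios and Ccl5 and Cd74 above it.

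**Figure D5:**
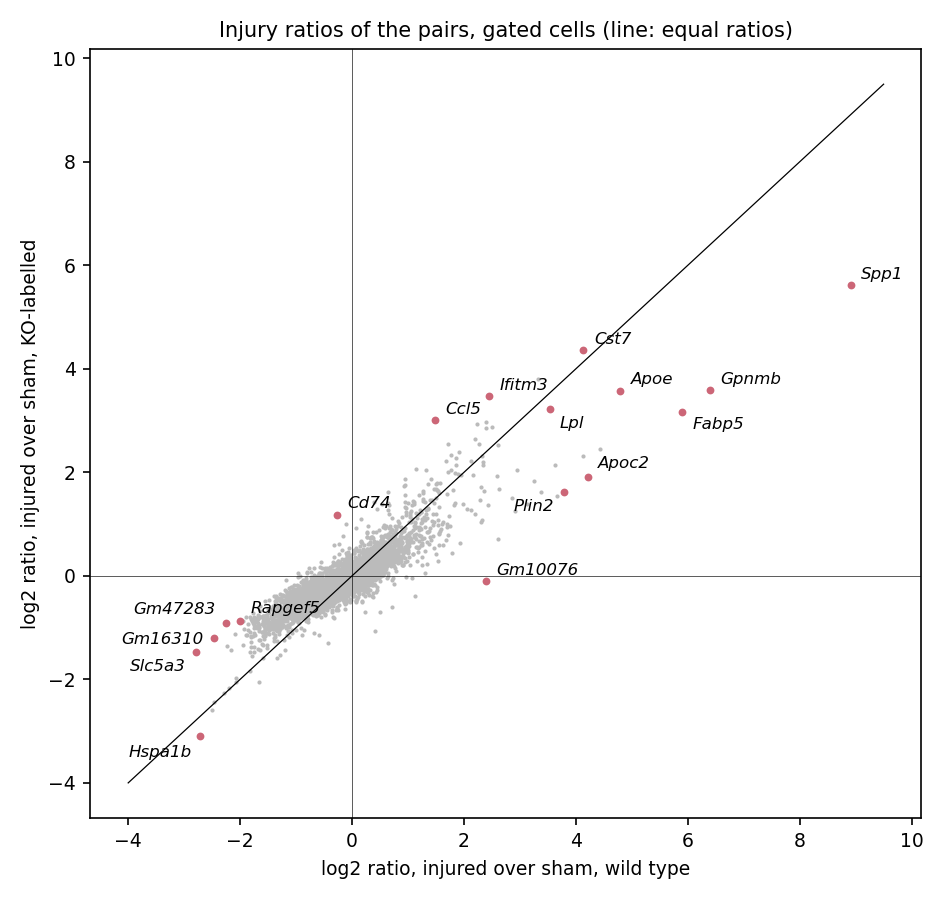
Log2 ratio of injured over sham (10 CPM added) of 6012 genes in the wild-type pair (x axis) and the KO-labelled pair (y axis), 1 library per group, with named genes in red and a line of equal ratios. Spp1 lies at 8.91 and 5.61, Fabp5 at 5.90 and 3.16, and Ccl5 at 1.48 and 3.00.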

How the data were processed

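The values deposited by the authors are unnormalized UMI counts, 1 per gene in each barcode; the submitters' processing notes name Cell Ranger 6.0.1 and the mm10 build. Other settings are not given in the sources used here. Counts were filtered, gated and summed per library with Python 3.11.15, numpy 2.4.6, scipy 1.17.1 and pandas 2.3.3, which was tested on simulated data; figures used matplotlib 3.10.9. Thinning to 3000 UMIs used seed 1. Doublets were scored with the scrublet routine of scanpy 1.11.5 only for an alternative that left out 29 sham and 87 injured gated cells. Of 32285 identifiers, 99.6% were in GENCODE vM21 (GRCm38). Of 573 list genes, 5 were not tied to 1 identifier (Clec7a, Mx1, Lrrc33, Aldoa and Ddit3) and have no value. Genes named are the 15 with the highest and the 15 with the lowest log2 ratio, up to 4 per list with the largest absolute log2 ratio, the IL-6 pathway and gate genes, the 10 shares highest and lowest in difference, and the 6 largest differences between pairs in each direction; marker genes, genes with printed promoters and a few abundant or counted list members were added after their values were seen. The members and lists were chosen with earlier results of these data known. Intervals and floors (3 counts) cover counting error only.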

Additional observations from a re-analysis of the deposited data

Results flagged for a closer look

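A few injury ratios pointed in opposite directions in the KO-labelled and the wild-type pair, with 1 library in each group; the differences were not tested. The phosphatase Dusp2 had a log2 ratio of 1.00 in the KO-labelled pair and -0.11 in the wild-type pair. Cd74, the class II invariant chain, had 1.18 and -0.27, and the median of the class II list 0.62 and -0.22. Tnfaip3 had 0.24 and -0.29, and the median of the NF-kB feedback list 0.14 and -0.36. The toll-like and pattern receptor list had medians of 0.30 and -0.10. Gm10076 had -0.11 and 2.39, with sham levels of 221 CPM in the KO-labelled and 42.9 CPM in the wild-type library and injured levels of 204 and 268 CPM, so the sham libraries differed more than the injured ones.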

How the results depend on the processing

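No paired analysis was possible because each group is 1 library. None of the 127 named genes at least 1.5-fold different, and none of the 10 lists whose median was, changed direction under the 16 alternatives. The 156 higher genes numbered 296 under median-of-ratios scaling, 68 with 50 CPM added, and 107 to 188 under the rest. The 98 lower genes numbered 32 under median-of-ratios scaling, 65 with a filter of 50 CPM, 207 with 2 CPM added, 17 with 50 CPM added, 59 without macrophage, monocyte and dendritic marker cells, 59 from cells thinned to 3000 UMIs, 197 against the wild-type sham library, and 48 without neuronal and myeloid marker cells, an alternative chosen after seeing the data, as was leaving out shared barcodes. The 248 genes with a lower share of cells numbered 116 at 1500 UMIs and 475 at 5000 UMIs per cell.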
